A study of Mus musculus with 36 samples.

Results

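The 10 genes followed here serve the defence against oxidative stress, and they were measured in a mouse fibroblast-like chondrocyte line treated with interleukin-1β (IL-1β), an inflammatory cytokine of joint disease. They were chosen by name: *Sod2*, *Hmox1*, *Nqo1*, *Gclc*, *Gclm*, *Srxn1*, *Txnrd1*, *Slc7a11*, *Aldh3a1* and *Nfe2l2*. All 10 were found, among 53421 genes in the count table and 52416 in the TPM table, and all 10 were tested in every comparison. Poly(A) RNA came from 36 libraries, 3 for each of 12 conditions. Cells received a pool of non-targeting siRNA (NT) or a pool of siRNA against *Ift88* (IFT88siRNA), a component of the machinery that builds the primary cilium. Each siRNA group was sampled in medium only (0 h), and IL-1β at 10 ng/ml was given for 1, 2, 4, 8 or 24 h. The siRNA concentration is 50 nM in the sample labels and 10 nM in the methods. All libraries came from 1 conditionally immortalised line that was grown out of the immortalising conditions before use. No untreated cells were sampled after 0 h, so IL-1β and time in culture cannot be told apart. The labels do not say whether the 3 replicates were separate cultures, so p-values measure only the spread between these samples, which may be technical.

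The transcription factor NRF2, encoded by *Nfe2l2*, is held at a low level by KEAP1, which marks it for degradation. Oxidants and electrophiles modify KEAP1, and NRF2 then pairs with small MAF proteins on antioxidant response elements of genes for glutathione synthesis, thioredoxin reduction, quinone reduction and haem breakdown. *Sod2* is better known as a target of NFκB, the main transcription factor downstream of IL-1β. In cartilage, oxidative stress and IL-1β both accompany osteoarthritis, and these genes are common markers of the response.

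Total counts on genes ran from 19337022 to 38304127 per library, and replicates correlated at r of 0.991 to 0.996 on log2 CPM (normalised counts, scaled with TMM to library size). *Ift88* was lower in IFT88siRNA than in NT at all 6 times, with log2 differences from −2.12 to −1.47 and no overlap between the groups. In IFT88siRNA at 8 h, *Ift88* was 3.0 CPM in replicate 3 against 1.53 and 1.59 CPM in the others. Of 8 chondrocyte markers, *Col11a1* (45.2 TPM), *Sox9* (11.3), *Comp* (9.78), *Col2a1* (8.35) and *Hapln1* (8.13) were measured in NT at 0 h, while *Matn1*, *Acan* and *Col9a1* were at 0.473, 0.126 and 0.0439 TPM. Their summed level was 80.6 to 85.9 TPM in NT at 0 h, 148 to 159 TPM at 2 h and 29.5 to 31.4 TPM at 24 h. The 5 fibroblast markers summed to between 579.8 and 1492 TPM over all libraries. The 5 leukocyte markers summed to between 7.13 and 15.1 TPM. In NT at 0 h, *Cd68* was at 10.7 TPM, *Lyz2* at 2.25, *Itgam* at 0.114, *Ptprc* at 0.109 and *Adgre1* at 0. The 3 endothelial markers summed to at most 1.54 TPM and the 3 epithelial markers to at most 7.63 TPM. In RNA from whole cultures, fewer cells of a type and less RNA per cell cannot be told apart, and the part of the moving marker sums in the results below was not tested.

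In medium only, the members spanned a wide range of levels, compared here in TPM, which allows for transcript length. In NT at 0 h the order was *Hmox1* (154.6 ± 2.30 TPM, SD, n = 3), *Txnrd1* (133.2 ± 8.48), *Gclm* (98.8 ± 5.05), *Nfe2l2* (88.0 ± 2.40), *Nqo1* (63.5 ± 3.52), *Gclc* (48.5 ± 1.65), *Srxn1* (42.8 ± 2.02), *Sod2* (21.4 ± 0.968), *Aldh3a1* (7.09 ± 0.633) and *Slc7a11* (3.48 ± 0.847). No neighbours in this order overlapped. In IFT88siRNA at 0 h the order of the 10 genes was the same, but *Gclm* overlapped *Nfe2l2* and *Gclc* overlapped *Srxn1*. By 24 h in NT, *Sod2* had moved from eighth to first, at 195 ± 7.43 TPM, above *Hmox1* at 166.7 ± 0.714 TPM. *Nfe2l2* (139.4 ± 3.23) and *Txnrd1* (138.5 ± 2.35) followed and overlapped, then came *Gclm* at 104.8 ± 3.67 TPM. *Gclc*, *Srxn1* and *Nqo1* lay between 39.7 and 47.0 TPM, and neighbours among them overlapped. The lowest levels at 24 h were again those of *Aldh3a1* (4.08 ± 0.807) and *Slc7a11* (3.90 ± 0.0333), which overlapped. In IFT88siRNA at 24 h, *Hmox1* (170.7 ± 6.51 TPM) stayed ahead of *Sod2* (155.7 ± 4.0 TPM).

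The members did not move as a block after IL-1β. In NT, 5 of the 10 rose at 1 or more times (*Sod2*, *Hmox1*, *Txnrd1*, *Slc7a11* and *Nfe2l2*), 2 fell (*Gclc* and *Aldh3a1*), and *Nqo1*, *Gclm* and *Srxn1* were called at no time. A gene was called with an adjusted p under 0.05 in edgeR's quasi-likelihood F-test and a fold change over 1.5, which is 0.585 on the log2 scale. Of all 16048 genes tested in NT, 26.8% rose, 29.7% fell and 50.7% were called in either direction at 1 or more times, and 7 of the 10 members were called, a share that stands beside that background. Per time, the members that rose numbered 2, 4, 4, 4 and 3 at the successive times after IL-1β, against 9.22%, 13.0%, 16.3%, 11.8% and 6.61% of all genes. Those that fell numbered 0, 1, 1, 1 and 1, against 9.45%, 14.3%, 12.4%, 7.87% and 9.71%. At 1 h, where edgeR called no fall, 4 members were lower at an unadjusted p under 0.05, and DESeq2 called no fall either. The share of all genes at an unadjusted p is not given, here or below, so such counts have no background to be read against. The median log2 change of the 10 members ran from 0.19 at 24 h to 0.36 at 2 h, while that of all genes tested lay between −0.02 and −0.01. The median of all genes tested depends on the scaling. Relative to TMM it moved by up to −0.121 with upper-quartile scaling, −0.207 with TPM and −0.295 with scaling to total counts. Under none of these did a called member value change sign, and the median of the members under them is not given here.

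**Figure D1:**
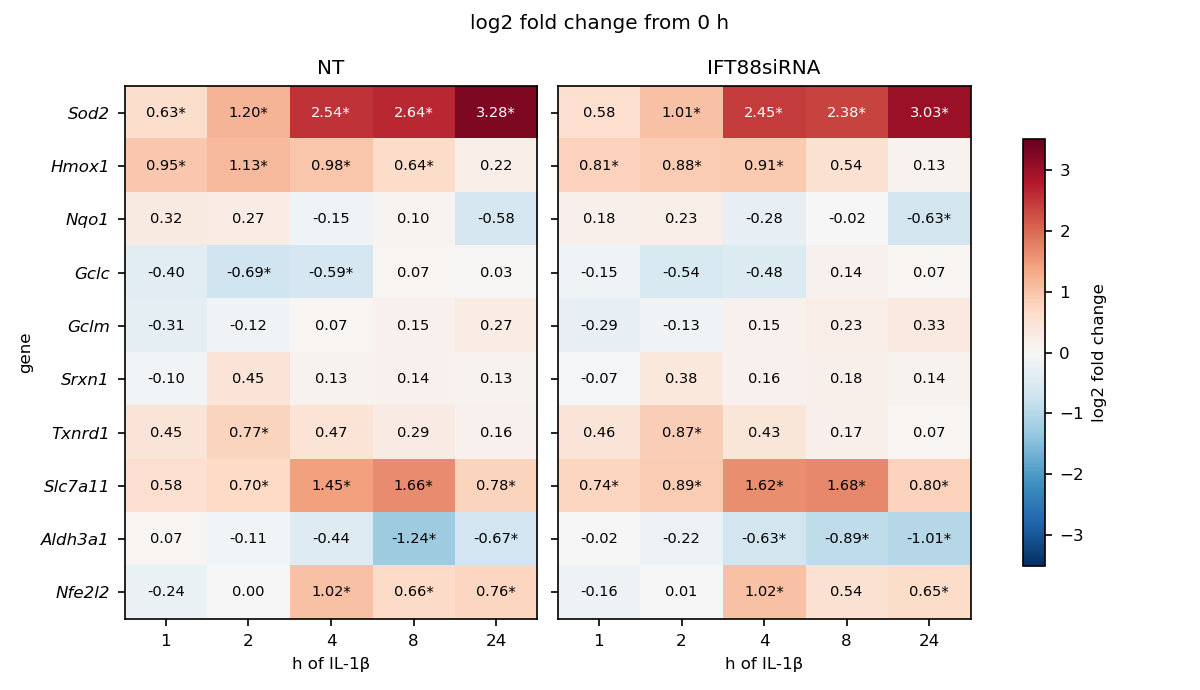
The heat map gives the log2 change from 0 h of each member (rows) at each time after IL-1β (columns, h) in NT and in IFT88siRNA, and an asterisk marks a called change. *Sod2* holds the highest values in both panels, 3.28 in NT and 3.03 in IFT88siRNA at 24 h, while *Gclc* and *Aldh3a1* are among the members below 0.

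*Sod2* encodes the manganese superoxide dismutase of mitochondria, which turns superoxide into hydrogen peroxide, and it showed the largest change of the 10 members in NT. The gene lies at chr17:13006846-13040063 on the plus strand of GRCm38. Its upstream sequence is shown because *Sod2* was the only one of 7 members with a sequence in RefSeq's promoter table in which a κB motif, the DNA letters bound by NFκB, was found. The 250 bases before the RefSeq start, chr17:13007589-13007838 (GRCm38.p6, plus strand), are printed 5′ to 3′ with the κB motif in capitals. The motif begins 83 bases before the start, and these letters match the motif's pattern on either strand, so they are 1 match.
Sod2: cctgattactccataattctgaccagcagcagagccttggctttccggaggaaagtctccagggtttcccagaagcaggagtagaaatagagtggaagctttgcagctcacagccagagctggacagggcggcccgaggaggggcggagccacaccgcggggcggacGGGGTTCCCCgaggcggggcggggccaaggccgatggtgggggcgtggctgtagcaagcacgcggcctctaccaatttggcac
Of 32536 promoters in the table, 7.28% held a κB motif in a window of the same length on either strand. A match is a description of the letters and not evidence of binding.

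Counts on *Sod2* rose at each of the 5 times in NT. At 0 h the 3 NT libraries held 37.3, 39.9 and 36.7 CPM. They held 59.6, 54.7 and 62.1 CPM at 1 h and 216.1, 211.3 and 229.8 CPM at 4 h, and by 24 h the values were 381.5, 377.7 and 347.5 CPM. Every library after IL-1β lay above every library at 0 h. The fold change was 2.29 at 2 h, 5.80 at 4 h, 6.22 at 8 h and 9.71 at 24 h, the last a log2 change of 3.28 (SE 0.055, adjusted p = 6.71e-24). The rise at 1 h was the smallest, at 0.63 (SE 0.056, adjusted p = 1.46e-09), and it fell short of the 1.5-fold threshold with upper-quartile scaling (0.55), TPM (0.48) and total-count scaling (0.43).

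*Hmox1* encodes haem oxygenase 1, which breaks haem down to biliverdin, iron and carbon monoxide, and its rise came early and then faded. The NT libraries held 123.7, 120.4 and 125.6 CPM at 0 h. At 2 h they held 268.8, 277.0 and 264.0 CPM, above all 0 h values. By 24 h they were back at 147.7, 142.2 and 141.6 CPM, still without overlap. The log2 change was 0.95 at 1 h, 1.13 at 2 h (2.18-fold, SE 0.044, adjusted p = 7.11e-17), 0.98 at 4 h and 0.64 at 8 h, all called, and 0.22 at 24 h (adjusted p = 0.000168), under the fold threshold. The call at 8 h was lost with TPM (0.53) and total-count scaling (0.55). *Hmox1* was the first of the 10 in TPM in NT at every time up to 8 h.

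**Figure D2:**
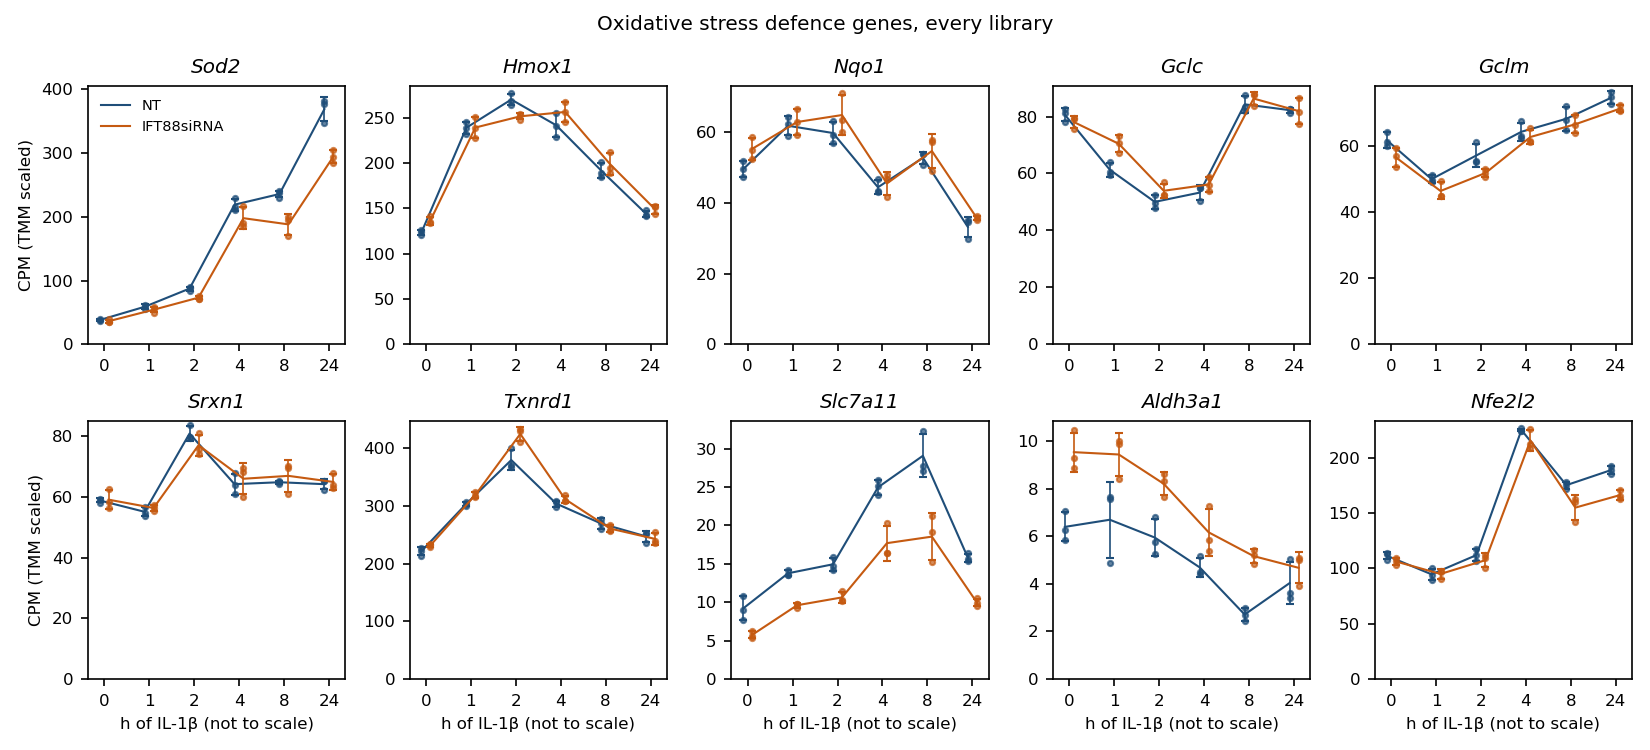
Each panel plots 1 member in CPM (vertical axis, linear) against hours of IL-1β, with a point per library, a line through the mean and bars for the SD over 3 libraries, for NT and IFT88siRNA. *Sod2* climbs to a mean of 369 CPM in NT and 294.5 CPM in IFT88siRNA at 24 h, *Hmox1* peaks at 269.9 CPM in NT at 2 h, and the *Slc7a11* points of the siRNA groups do not overlap in CPM at any time.

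Among the members, 3 serve the supply of glutathione, the main thiol antioxidant of cells, and they moved in different ways. *Slc7a11* encodes the light chain of the transporter that brings in cystine. *Gclc* and *Gclm* encode the catalytic and the modifier subunit of glutamate-cysteine ligase, the first enzyme of glutathione synthesis.

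*Slc7a11* had few reads, from 158 to 750 counts per library. The NT libraries held 7.73, 10.8 and 9.0 CPM at 0 h. They held 25.9, 23.9 and 25.1 CPM at 4 h and 32.3, 27.1 and 27.8 CPM at 8 h, then 16.4, 15.7 and 15.3 CPM at 24 h. The values at each of these times lay above all 3 at 0 h. In log2 terms the change was 0.58 at 1 h (not called), 0.70 at 2 h, 1.45 at 4 h, 1.66 at 8 h (3.16-fold, SE 0.089, adjusted p = 6.02e-14) and 0.78 at 24 h. The deposited TPM gave smaller changes, tested with limma on log2(TPM + 1). On that scale, which understates the change of low genes, *Slc7a11* changed by 0.62 at 4 h and 0.79 at 8 h, both called, but by 0.15 at 2 h (adjusted p = 0.32) and 0.14 at 24 h (adjusted p = 0.378). With a pseudocount of 0.1 the *Slc7a11* values were 0.94 at 8 h and 0.18 at 24 h (adjusted p = 0.358), still under those from the counts. The call at 2 h was also lost with total-count scaling (0.41) and without NT 0 h replicate 1 (0.58). The value at 1 h was called by DESeq2 (0.59, adjusted p = 1.9e-07), with DESeq2 size factors (0.59) and without NT 0 h replicate 2 (0.72) or NT 1 h replicate 2 or 3 (0.59 each).

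*Gclc* fell early and was back at its starting level by 8 h. The NT libraries held 78.2, 81.1 and 82.6 CPM at 0 h and 47.9, 49.6 and 52.6 CPM at 2 h, without overlap. They held 82.0, 87.5 and 83.4 CPM at 8 h, a range that overlapped the one at 0 h. The log2 change was −0.40 at 1 h (not called), −0.69 at 2 h (SE 0.048, adjusted p = 6.78e-12), −0.59 at 4 h (SE 0.048, adjusted p = 1.04e-10), and 0.07 and 0.03 at 8 and 24 h (adjusted p = 0.22 and 0.629). The value at 4 h sat at the fold threshold, and leaving out NT 0 h replicate 2 or 3 or NT 4 h replicate 3 took it to between −0.58 and −0.56 and ended the call.

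*Gclm* was called at no time in either group. The NT libraries held 60.1, 61.2 and 64.5 CPM at 0 h, 51.2, 49.1 and 49.8 CPM at 1 h, and 76.5, 74.9 and 72.7 CPM at 24 h. Its log2 change was −0.31 at 1 h (adjusted p = 2.09e-05) and 0.27 at 24 h (adjusted p = 7.01e-05), and neither range overlapped that of 0 h. At 4 h the value was 0.07, and it became −0.05 with upper-quartile scaling, −0.23 with total-count scaling and −0.26 in TPM. Counts on *Gclm* are uncertain to a degree, because 4.71% of its exonic bases are shared with *Gm17494* on the opposite strand and 3.88% with the pseudogene *Gm6061*, and the counting did not use strand.

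The thioredoxin members had a common time of highest level, 2 h, but only 1 was called. *Txnrd1* encodes the cytosolic thioredoxin reductase, which returns oxidised thioredoxin to its active form with NADPH. The NT libraries held 227.7, 222.5 and 213.6 CPM at 0 h and 369.8, 399.4 and 367.9 CPM at 2 h, far apart. Its log2 change was 0.77 at 2 h (1.71-fold, SE 0.042, adjusted p = 5.39e-14) and 0.45, 0.47, 0.29 and 0.16 at 1, 4, 8 and 24 h, which were not called. The call at 2 h was lost with TPM (0.54) and total-count scaling (0.49). *Srxn1* encodes sulfiredoxin, which repairs over-oxidised peroxiredoxins. It held 59.3, 58.0 and 59.1 CPM at 0 h and 83.5, 79.7 and 79.3 CPM at 2 h, a log2 change of 0.45 (SE 0.043, adjusted p = 1.95e-09) that did not reach 1.5-fold. At the other times its log2 change was between −0.10 and 0.14, and that at 4 h turned negative with TPM (−0.01) and total-count scaling (−0.16).

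The remaining enzymes handle quinones and aldehydes. *Nqo1* encodes a quinone reductase that is a standard readout of NRF2. It was called at no time in NT, but its value at 24 h lay just under the fold threshold. The libraries held 47.3, 51.8 and 49.5 CPM at 0 h and 35.1, 34.6 and 29.9 CPM at 24 h, without overlap, a log2 change of −0.58 (SE 0.060, adjusted p = 1.72e-08). Upper-quartile scaling (−0.63), TPM (−0.67) and total-count scaling (−0.63) each took it past the threshold, as did leaving out NT 0 h replicate 1, NT 24 h replicate 1 or NT 24 h replicate 2 (−0.62 to −0.61). At 1 and 2 h *Nqo1* was at 0.32 and 0.27, and the latter became −0.02 with total-count scaling.

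*Aldh3a1* encodes an aldehyde dehydrogenase known for removing lipid aldehydes, and it had the fewest reads of the 10, from 55 to 297 counts per library. The NT libraries held 7.05, 6.26 and 5.85 CPM at 0 h and 3.0, 2.42 and 2.70 CPM at 8 h, without overlap. The log2 change at 8 h was −1.24 (2.36-fold lower, SE 0.17, adjusted p = 1.49e-06). At 24 h it was −0.67 (SE 0.16, adjusted p = 0.00114), with libraries at 5.05, 3.42 and 3.62 CPM, and without NT 24 h replicate 2 this became −0.57 and was no longer called. At 1, 2 and 4 h the values were 0.07, −0.11 and −0.44, and the first of these was negative with upper-quartile scaling, TPM and total-count scaling (−0.13 to −0.01). The value at 4 h became a call with TPM (−0.60, limma adjusted p = 0.00322) and total-count scaling (−0.73, edgeR adjusted p = 0.000327).

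*Nfe2l2*, which encodes NRF2 itself, rose only from 4 h on in NT. The libraries held 107.9, 113.6 and 113.2 CPM at 0 h and 112.1, 106.4 and 117.7 CPM at 2 h, which overlapped. They then held 224.4, 226.6 and 224.3 CPM at 4 h, 175.3, 172.1 and 178.6 CPM at 8 h and 188.8, 192.6 and 185.6 CPM at 24 h, all above 0 h. The log2 change was −0.24 at 1 h (adjusted p = 9.95e-05, not called), 0.00 at 2 h, 1.02 at 4 h (SE 0.044, adjusted p = 4.17e-16), 0.66 at 8 h and 0.76 at 24 h. With TPM and total-count scaling the value at 2 h was negative (−0.22 and −0.28) and that at 8 h lost its call (0.57 under each). RNA level does not measure NRF2 protein, which is set largely by its degradation.

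**Figure D3:**
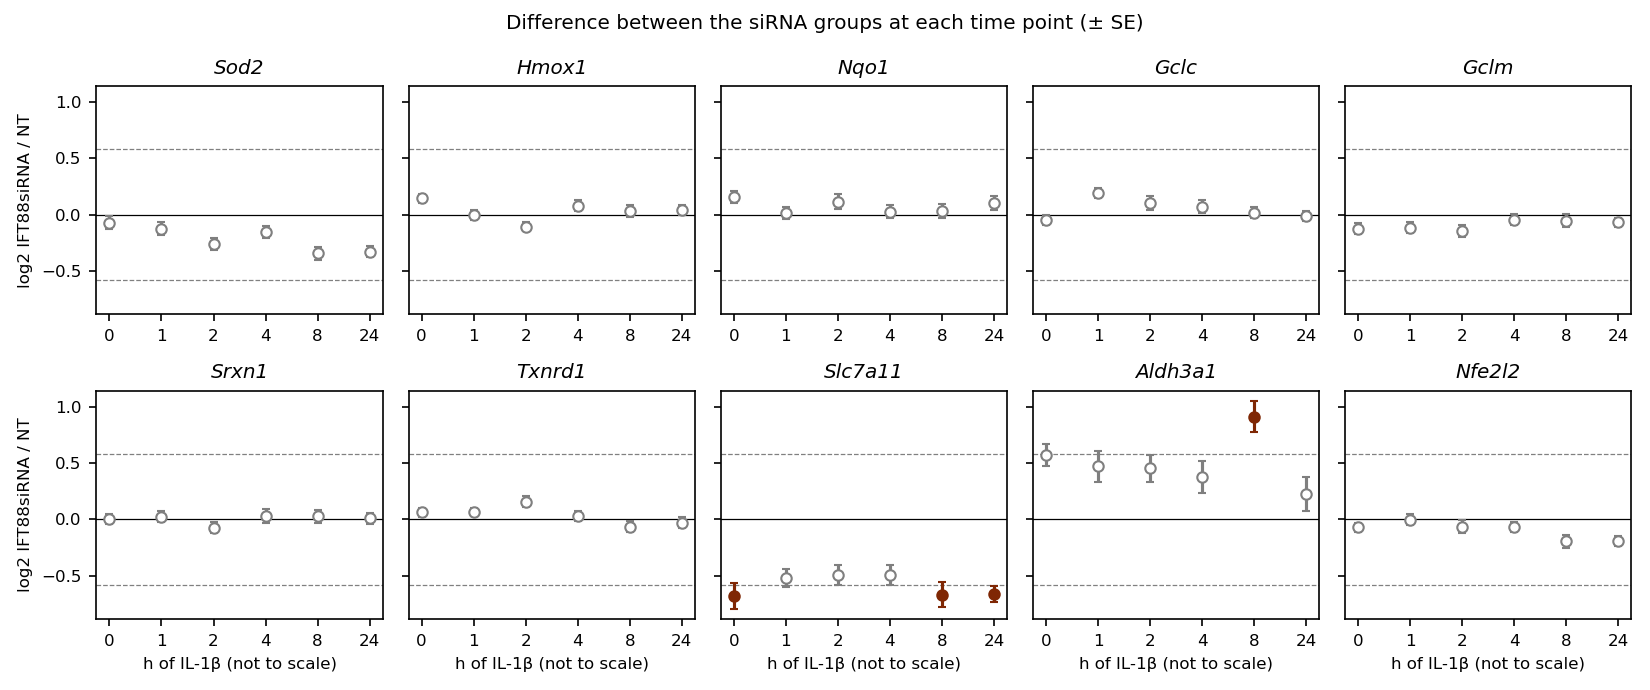
Each panel gives the log2 ratio of IFT88siRNA to NT for 1 member (vertical axis) at each time (horizontal axis, h), with bars for the SE, filled points for called differences and dashed lines at 1.5-fold. *Slc7a11* lies below 0 at every time, from −0.68 to −0.49, *Aldh3a1* above 0 at every time, from 0.23 to 0.91, and the other 8 members stay between −0.34 and 0.19.

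Sequence before the start of 3 members held the core of an antioxidant response element, TGACNNNGC, searched on both strands in the RefSeq windows of 250 bases (GRCm38.p6). Of the 10 members, 7 had such a window, 9 windows in all, since *Txnrd1* has several starts. *Hmox1*, *Gclc* and *Aldh3a1* had none. The core was found in 10.21% of the 32536 promoters in the table. The 3 windows with the core are printed because they belong to members with unlike time courses, *Gclm* (not called), *Txnrd1* (highest at 2 h) and *Nfe2l2* (highest at 4 h), and the core is in capitals. For *Gclm*, chr3:122245307-122245556 on the plus strand, it lies on the reverse strand and its printed letters begin 134 bases before the start. For *Txnrd1*, chr10:82858956-82859205 on the plus strand, it is also on the reverse strand, at 92 bases before the second of its starts. For *Nfe2l2*, chr2:75704664-75704913 on the minus strand, it is on the gene's own strand, at 240 bases before the start.
Gclm: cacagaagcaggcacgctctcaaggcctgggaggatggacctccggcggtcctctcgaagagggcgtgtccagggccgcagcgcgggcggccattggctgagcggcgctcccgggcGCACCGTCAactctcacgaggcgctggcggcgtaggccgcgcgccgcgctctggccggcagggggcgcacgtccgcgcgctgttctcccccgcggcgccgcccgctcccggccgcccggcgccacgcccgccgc
Txnrd1: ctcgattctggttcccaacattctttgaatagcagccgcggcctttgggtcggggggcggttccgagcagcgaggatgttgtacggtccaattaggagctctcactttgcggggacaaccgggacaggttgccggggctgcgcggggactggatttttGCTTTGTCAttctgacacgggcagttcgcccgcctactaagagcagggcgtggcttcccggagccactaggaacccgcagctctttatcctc
Nfe2l2: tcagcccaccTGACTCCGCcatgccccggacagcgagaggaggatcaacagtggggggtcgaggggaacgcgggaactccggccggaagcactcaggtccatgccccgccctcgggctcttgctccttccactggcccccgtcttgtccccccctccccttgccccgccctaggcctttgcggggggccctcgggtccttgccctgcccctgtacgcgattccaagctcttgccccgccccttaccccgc
The windows of *Sod2*, *Nqo1*, *Srxn1* and *Slc7a11* did not hold these letters. Only this pattern was searched, so its absence says nothing of other forms of the element in these windows or of elements farther away.

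The same comparison was made within IFT88siRNA, from its own 0 h libraries. In IFT88siRNA, 5 members rose at 1 or more times, the same 5 as in NT, and 2 fell, *Nqo1* and *Aldh3a1*. Of 16129 genes tested, 25.3% rose, 28.6% fell and 49.2% were called in either direction. The members that rose numbered 2, 4, 4, 2 and 3 at the successive times, against 6.82%, 12.4%, 16.0%, 10.5% and 6.36% of all genes. Those that fell numbered 0, 0, 1, 1 and 2, against 8.25%, 13.2%, 13.3%, 7.11% and 7.87%. Where edgeR called no fall, at 1 and 2 h, 3 and 2 members were lower at an unadjusted p under 0.05, and DESeq2 called 0 at either time. These unadjusted counts have no share of all genes beside them.

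*Sod2* again changed most in IFT88siRNA. Its libraries held 34.9, 34.6 and 39.0 CPM at 0 h and 284.3, 294.5 and 304.6 CPM at 24 h, an 8.15-fold rise (log2 3.03, SE 0.074, adjusted p = 3.52e-20). At 1 h it stood at 0.58, just under the threshold, and 0.64 without IFT88siRNA 0 h replicate 3 or without 1 h replicate 2, which made it a call, as did DESeq2 (0.60), its size factors (0.60) and no filter on low counts (0.59). *Hmox1* rose at 1, 2 and 4 h (0.81, 0.88 and 0.91) and stood at 0.54 at 8 h. *Txnrd1* rose at 2 h, from 232.1, 228.9 and 233.1 CPM to 429.1, 432.6 and 411.1 CPM (log2 0.87, SE 0.043, adjusted p = 1.1e-14). *Nfe2l2* rose at 4 h (1.02) and 24 h (0.65, lost with TPM at 0.57) and stood at 0.54 at 8 h, or at 0.60 and called without IFT88siRNA 8 h replicate 3.

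*Slc7a11* rose at all 5 times in IFT88siRNA, from 5.38, 5.63 and 6.24 CPM at 0 h to 21.3, 15.3 and 19.1 CPM at 8 h (log2 1.68, SE 0.11, adjusted p = 6.94e-12). In TPM its rise was called at 4 and 8 h (0.70 and 0.74) and not at 1, 2 or 24 h (0.30, 0.28 and 0.34, adjusted p = 0.164, 0.165 and 0.134). *Aldh3a1* fell at 4, 8 and 24 h (−0.63, −0.89 and −1.01), from 8.86, 10.4 and 9.28 CPM at 0 h to 3.92, 5.09 and 5.01 CPM at 24 h. Its fall at 4 h became −0.56 and lost its call without IFT88siRNA 0 h replicate 2 or 4 h replicate 3. *Nqo1* fell at 24 h, from 58.5, 52.5 and 54.9 CPM to 36.3, 35.2 and 35.7 CPM (log2 −0.63, SE 0.071, adjusted p = 7.97e-08), which lies close to its uncalled value of −0.58 in NT. *Gclc* stood at −0.54 at 2 h and −0.48 at 4 h, uncalled, and upper-quartile scaling (−0.64 and −0.59), TPM (−0.73 and −0.68) and total-count scaling (−0.80 and −0.74) each made both a call.

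Depletion of IFT88 was compared with NT at each time, 3 libraries against 3. Only 2 members were called at any time, *Slc7a11*, which was lower, and *Aldh3a1*, which was higher. Over all genes, 1.16% were higher, 4.22% lower and 5.34% called in either direction at 1 or more times. The members called higher numbered 0, 0, 0, 0, 1 and 0 at the 6 times from 0 h on, against 0.674%, 0.182%, 0.0339%, 0.0338%, 0.0791% and 0.552% of all genes. Those called lower numbered 1, 0, 0, 0, 1 and 1, against 1.56%, 2.47%, 0.462%, 0.399%, 0.613% and 0.598%. At an unadjusted p under 0.05, 3, 2, 2, 1, 1 and 0 members were higher and 2, 2, 4, 2, 3 and 3 lower. The percentages above belong to the stricter call, and no share of all genes is given for the unadjusted counts. DESeq2 gave the same counts of calls as edgeR at each time.

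*Slc7a11* was lower in IFT88siRNA before and after IL-1β, and in CPM the groups did not overlap at any of the 6 times. At 0 h NT held 7.73, 10.8 and 9.0 CPM and IFT88siRNA 5.38, 5.63 and 6.24 CPM, a log2 difference of −0.68 (1.6-fold, SE 0.11, adjusted p = 0.000184). At 8 h NT held 32.3, 27.1 and 27.8 CPM and IFT88siRNA 21.3, 15.3 and 19.1 CPM, a difference of −0.67 (SE 0.11, adjusted p = 0.0085). At 24 h the values were 16.4, 15.7 and 15.3 CPM against 9.54, 10.5 and 9.86 CPM, a difference of −0.66 (SE 0.074, adjusted p = 4.5e-05). At 1, 2 and 4 h the difference was −0.52, −0.49 and −0.50, under the fold threshold with adjusted p of 0.000351, 0.0157 and 0.00462.

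These *Slc7a11* calls rest on the counts. In TPM the siRNA groups overlapped at 0, 1 and 24 h, with 2.75 to 4.41 TPM in NT and 1.85 to 2.90 TPM in IFT88siRNA at 0 h, and 3.86 to 3.93 against 2.5 to 4.65 TPM at 24 h. On log2(TPM + 1) the difference was −0.40, −0.45 and −0.21 at 0, 8 and 24 h, and limma called none (adjusted p = 0.233, 0.13 and 0.652). The call at 0 h was lost without NT 0 h replicate 2 (−0.54). The one at 8 h was lost without NT 8 h replicate 1 (−0.58, adjusted p = 0.062) or IFT88siRNA 8 h replicate 2 (−0.54). Without IFT88siRNA 8 h replicate 3, the library with more *Ift88*, the 8 h difference was −0.71 (adjusted p = 0.0018).

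*Aldh3a1* was called only at 8 h, where NT held 3.0, 2.42 and 2.70 CPM and IFT88siRNA 5.23, 5.43 and 4.83 CPM. The difference of 0.91 (1.88-fold, SE 0.14, adjusted p = 0.00507) became 0.96 without IFT88siRNA 8 h replicate 3, and it lost its call with TPM and no minimum (0.72, limma adjusted p = 0.0572). At 0 h it stood at 0.57 (adjusted p = 0.000279), from 7.05, 6.26 and 5.85 CPM in NT to 8.86, 10.4 and 9.28 CPM in IFT88siRNA, without overlap, and leaving out NT 0 h replicate 1 or IFT88siRNA 0 h replicate 1 or 3 made it a call (0.59 to 0.65). The difference at 24 h was 0.23 (adjusted p = 0.425), and the groups overlapped.

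None of the other 8 members was called between the siRNA groups. *Sod2* had the largest of their differences, with −0.26 at 2 h, −0.34 at 8 h and −0.33 at 24 h (SE 0.050, adjusted p = 0.000638), all under 1.5-fold. At 24 h its NT libraries, at 347.5 to 381.5 CPM, lay above those of IFT88siRNA, at 284.3 to 304.6 CPM. Without IFT88siRNA 8 h replicate 3 the *Sod2* difference at 8 h was −0.28 (adjusted p = 0.00214). *Nfe2l2* stood at −0.19 at 24 h (adjusted p = 0.0144) and *Gclc* at 0.19 at 1 h (adjusted p = 0.0103). *Hmox1* and *Nqo1* stood at 0.15 and 0.16 at 0 h (adjusted p = 0.018 and 0.0342). For *Gclm*, *Srxn1* and *Txnrd1* no adjusted p was under 0.05 at any time, with differences from −0.15 to 0.16.

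Whether the response itself differed between the siRNA groups was asked with the 5 differences in change from 0 h tested jointly in all 36 libraries. No member was called, against 1.20% of all genes (201 of 16710) and 5.53% with an adjusted p under 0.05 at any fold. DESeq2 also called 0 members. At an unadjusted p under 0.05 there were 4, *Txnrd1*, *Gclc*, *Hmox1* and *Sod2*, with edgeR adjusted p of 0.109, 0.151, 0.159 and 0.214. The share of all genes at an unadjusted p is not given. The differences at single times were at most 0.25 in size for *Hmox1* (−0.25 at 2 h), *Gclc* (0.25 at 1 h) and *Sod2* (−0.25 at 8 and 24 h). *Slc7a11*, lower in IFT88siRNA at 0 h, had response differences of 0.02 to 0.19 (SE 0.15 to 0.16, adjusted p over the 5 times 0.821). For *Aldh3a1* they ran from −0.34 at 24 h to 0.36 at 8 h (SE 0.20 and 0.21, adjusted p over the 5 times 0.378).

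Around the 10 members, 85 genes of the same pathways were followed in 8 lists, and 79 were tested in NT. At 1 or more times 32 rose and 13 fell, 2 of them did both, and 36 were not called, beside the 26.8% of all genes that rose, the 29.7% that fell and the 50.7% called in either direction in NT. The 6 that were not tested all belong to the list of enzymes that make superoxide. Of the 9 regulators of NRF2, 7 rose and 1 fell, and the lists were not tested against all genes or against each other. The small MAF genes *Maff* and *Mafk*, partners of NRF2, rose from 20.3 ± 0.483 to 198.3 ± 4.24 CPM at 1 h (9.75-fold) and from 32.4 ± 1.08 to 111.0 ± 7.0 CPM at 4 h (3.44-fold). *Keap1*, the gene of the protein that degrades NRF2, fell from 64.2 ± 3.44 to 42.4 ± 1.6 CPM at 2 h (log2 −0.60, SE 0.050).

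Of 18 glutathione genes, 9 rose and 2 fell. The glutaredoxin gene *Glrx* rose 4.86-fold (26.4 ± 0.935 to 128.4 ± 9.95 CPM) and the glutathione transferase gene *Gstt1* 3.21-fold, both at 24 h. *Gpx3*, a secreted glutathione peroxidase, fell by 0.94 on the log2 scale at 8 h and *Ggct* by 0.59 at 1 h. Of 16 thioredoxin and peroxiredoxin genes, 4 rose and 3 fell. *Txnrd3* rose 2.2-fold at 8 h and the peroxiredoxin gene *Prdx5* 2.04-fold at 24 h. *Sesn2*, a sestrin, fell from 138.7 ± 2.22 to 53.6 ± 1.85 CPM at 2 h and *Txnip*, an inhibitor of thioredoxin, from 373.7 ± 10.9 to 160.1 ± 13.1 CPM at the same time.

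Of the 4 genes for removal of superoxide and hydrogen peroxide beside *Sod2*, 1 rose and none fell. This was *Sod3*, the secreted dismutase, from 189.7 ± 4.73 to 492.7 ± 32.4 CPM at 24 h (2.60-fold). Of 7 genes for NADPH supply, 2 rose and 2 fell, and *Idh1* did both, with a log2 change of 1.11 at 1 h and −0.75 at 4 h. *Tkt* rose 1.5-fold at 1 h and *Idh2* fell by 0.62 on the log2 scale at 8 h. Of 14 genes for quinones, aldehydes and conjugates, 5 rose and 4 fell. The export pump *Abcc1* rose from 136.8 ± 3.78 to 428.1 ± 13.0 CPM and *Ugdh* from 215.4 ± 1.31 to 440.3 ± 17.5 CPM at 4 h, while *Osgin1* fell by 1.26 at 2 h and *Aox1* by 1.17 at 24 h on the log2 scale.

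Next to *Hmox1*, 1 of 5 genes of haem breakdown and ferritin rose and none fell. *Fth1*, the heavy chain of the iron store ferritin, rose 5.92-fold, from 927.8 ± 19.1 to 5494 ± 440.1 CPM at 24 h. Of 6 genes tested among 12 that serve to make superoxide, 3 rose and 1 fell. *Xdh*, xanthine dehydrogenase, rose 5.49-fold at 8 h, from 34.1 ± 1.38 to 186.5 ± 7.57 CPM. *Cybb*, the core of the phagocyte oxidase, had 4 reads in all 3 NT libraries at 0 h together and 101 reads at 8 h. *Duox1* fell from 2.11 ± 0.0726 to 1.23 ± 0.186 CPM at 1 h.

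Not all of the 85 pathway genes were tested between the siRNA groups, and of the 12 that serve to make superoxide 5 or 6 were at each time. Of the pathway genes tested, 1 was called at 1 or more times, against 5.34% of all genes tested called in either direction. This was *Gstm2*, a glutathione transferase named here after its values were seen, which was higher in IFT88siRNA at 0 h (22.9 against 15.0 CPM, log2 0.60, adjusted p = 1.36e-05) and at 24 h (15.6 against 10.1 CPM, log2 0.63, adjusted p = 7.34e-05). No pathway gene met both thresholds for a different response, against 1.20% of all genes. The lists held genes with many known roles, and a count of rises and falls describes a list and is not a test of it. List calls are given for edgeR with TMM scaling only. The log2 changes of *Tkt* (0.588), *Ggct* (−0.590) and *Keap1* (−0.600) lay close to the fold threshold of 0.585.

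**Figure D4:**
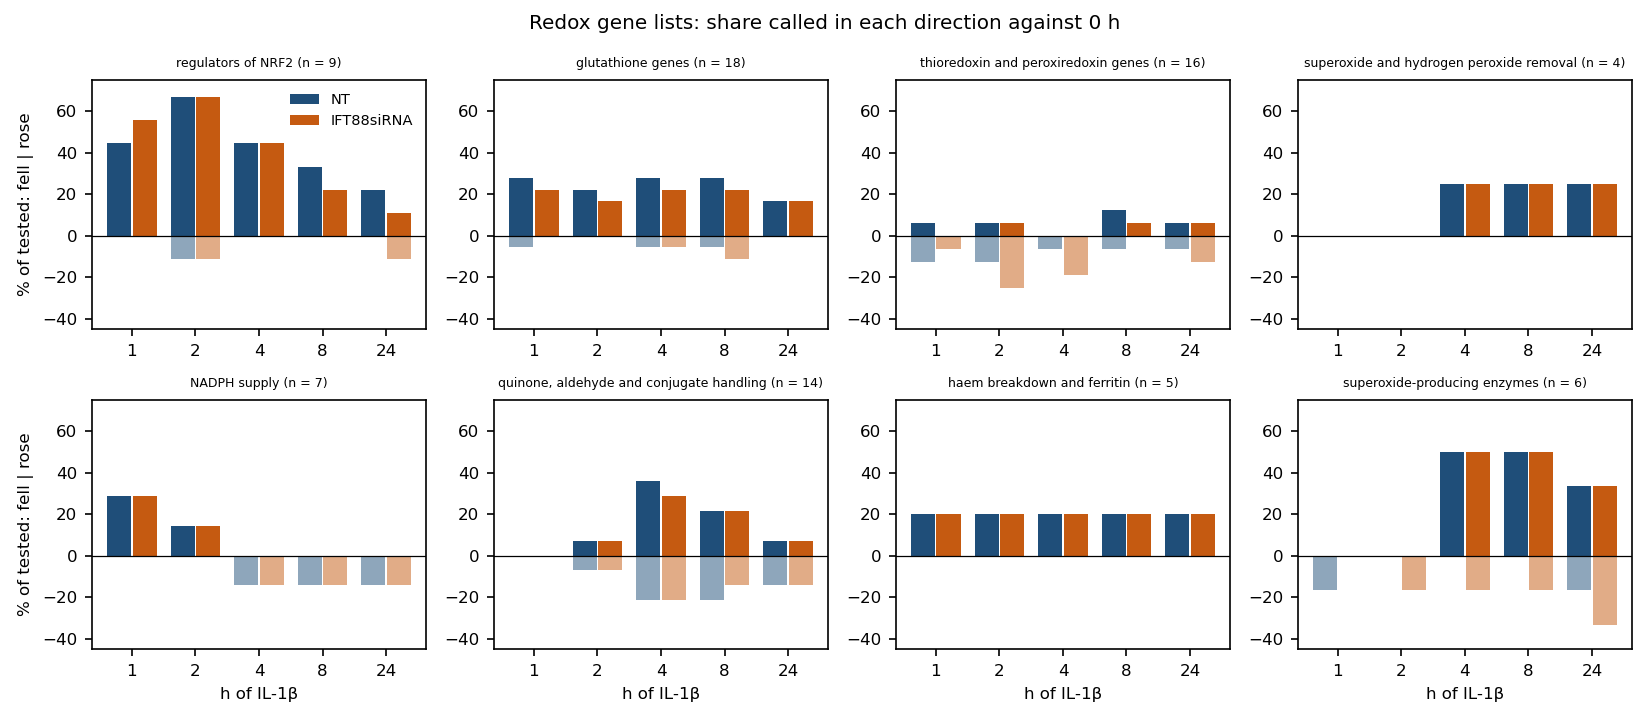
For each of the 8 pathway lists, the plot gives the share of its tested genes (percent) that rose or fell at each time (h) in NT and in IFT88siRNA. At 2 h, 6 of the 9 regulators of NRF2 rose and 1 fell in each group. Of all genes at 2 h, 13.0% rose and 14.3% fell in NT, and 12.4% rose and 13.2% fell in IFT88siRNA. At 24 h, 2 of these regulators rose in NT, and 1 rose and 1 fell in IFT88siRNA. Of all genes at 24 h, 6.61% rose in NT, and 6.36% rose and 7.87% fell in IFT88siRNA.

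The genes whose mean log2 CPM followed a member most closely over the 12 conditions were looked up among 13256 genes. These correlations describe 12 means that share their libraries, and they carry no test. *Sod2* was closest to *Saa3*, an acute-phase gene, and *Mettl7b* (r = 0.992 for each). *Hmox1* was closest to *Atrnl1* (0.981) and *Lamp2* (0.976), *Txnrd1* to *Csnk1e* (0.985) and *Samd4b* (0.982), and *Nfe2l2* to *Upp1* (0.985) and *Ptpn1* (0.982). *Nqo1* was closest to *Foxp2* (0.986) and *Tgm5* (0.984), *Gclc* to *Mrps35* (0.978) and *Gcdh* (0.977), and *Gclm* to *Gm15987* (0.963) and *Ybx3* (0.962). The lowest of these values belonged to *Srxn1*, with *Zscan25* (0.954), *Aldh3a1*, with *Acyp1* and *Snapc5* (0.947 and 0.943), and *Slc7a11*, with *Ltv1* (0.940) and *Gm4262* (0.937). No member was among the 2 closest genes of another member.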

How the data were processed

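Poly(A) RNA was sequenced as paired-end reads from 36 libraries. The authors aligned the reads to GRCm38 with HISAT2 2.1.0, and the deposited counts per gene, whole numbers without normalization, came from featureCounts (Subread 1.6.3) with default parameters, so strand was not used. The deposited TPM values came from Salmon 0.9.1 with correction for GC bias. The submitters' processing notes give these versions. Conditions came from the sample labels. The 10 members and the pathway lists were chosen with earlier results of these data known.

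The tests on counts used edgeR 4.0.16 (R 4.3.3) with TMM scaling, filterByExpr and its two-sided quasi-likelihood F-test, adjusted over all genes tested by Benjamini-Hochberg. A call needed an adjusted p under 0.05 and a fold over 1.5. Each siRNA group was fitted on its 18 libraries against its own 0 h, the siRNA groups on 3 libraries against 3 at each time, and the difference in response on all 36. The SE was taken as |log2 fold change| over the root of F. Scripts were tested on simulated data. The time-course tool of the study, ImpulseDE2, was not used here.

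Named genes are all members, at most the 2 largest rises and 2 largest falls called in NT per list, the 2 genes closest to each member among those of at least 1 CPM, *Ift88* and the markers, apart from a result that is not reported here. Upstream sequences are from RefSeq. Alternatives were DESeq2 1.42.0, its size factors, upper-quartile scaling, no filter, no fold threshold, a replicate block, all libraries in 1 model, leaving out libraries, and TPM with limma 3.58.1 on log2(TPM + 1), kept at 1 TPM or more in 3 libraries, with a pseudocount of 0.1 and with no minimum. Total-count scaling was added after seeing the data. Reads carry no molecular identifiers, so depth (19337022 to 38304127 counts) sets counting error only. Figures were drawn with matplotlib 3.10.9.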

Additional observations from a re-analysis of the deposited data

Results flagged for a closer look

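Among the 10 members and 85 pathway genes, 7 genes were flagged, 1 of them a member. Their change from 0 h differed between IFT88siRNA and NT by a test of the difference itself, all by less than 1.5-fold. The flagged pathway genes had an adjusted p under 0.05 over the 5 times together, as did 5.53% of all genes (924 of 16710). The flagged member passed only at a single time, a test for which no share of all genes is given. Among the members this was *Gclc* at 1 h, where the change was −0.40 in NT and −0.15 in IFT88siRNA, a difference of 0.25 (SE 0.068, edgeR adjusted p = 0.043 at this time, 0.151 over the 5 times together). In the pathway lists, *Maff* at 2 h differed by 0.49 (3.26 in NT and 3.76 in IFT88siRNA, edgeR adjusted p over the 5 times = 0.000254). *Mafk* at 1 h differed by 0.42 (1.26 and 1.69, edgeR adjusted p over the 5 times = 0.000391). *Sesn2* at 1 h differed by 0.33 (−0.59 and −0.26, edgeR adjusted p over the 5 times = 5.16e-05). *Glrx* at 24 h differed by −0.48 (2.28 and 1.80, edgeR adjusted p over the 5 times = 3.37e-06). *Abcc1* at 24 h differed by −0.29 (1.02 and 0.73, edgeR adjusted p over the 5 times = 0.0139, 0.0904 at this time alone). *Xdh* at 8 h differed by −0.41 (2.46 and 2.04, edgeR adjusted p over the 5 times = 0.014, 0.243 at this time alone). The time given for each gene is that of its largest difference, and causes were not tested.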

How the results depend on the processing

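Of 44 called member values (21 in NT, 19 in IFT88siRNA, 4 between the siRNA groups), 27 kept their call under every alternative and 17 lost it under 1 or more. No called member value reversed. The cause was not tested for any change below. The replicate block changed 0 of 170 member calls. After subtraction of condition means, samples of the same replicate number correlated at r from −0.133 to 0.223 (48 pairs, 2 over 0.1). Low correlations cannot settle whether replicate numbers pair the samples, and the labels do not say. Over all genes, the count of calls with the block between the siRNA groups was 115 against 73 at 2 h, and its other counts stayed within 1.5 times those without it. Fitting all 36 libraries in 1 model changed 0 of 160 member calls. DESeq2 gave 3 members raised at 1 h against 2 in each siRNA group and otherwise the same counts. Of all genes at 1 h, DESeq2 called 1439 of 16048 raised in NT and 1094 of 16129 in IFT88siRNA.

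With no fold threshold, members raised in NT were 5 at 1 h, 7 at 8 h and 7 at 24 h, and lowered 3 at 1 h, 3 at 4 h and 2 at 24 h. Of all 16048 genes, 4165, 4351 and 3478 were raised and 4139, 4773 and 3728 lowered at those times. In IFT88siRNA, raised were 5 at 1 h, 7 at 4 h and 8 at 8 h, and lowered 3 at 1 h, 2 at 2 h and 3 at 4 h. Of all 16129 genes, 3483, 4904 and 4109 were raised and 3488, 4591 and 4745 lowered at those times. Between the siRNA groups, higher were 3 at 0 h and 2 at 1 h, and lower 1 at 1 h, 2 at 2 h, 1 at 4 h, 2 at 8 h and 3 at 24 h. Of 14728 to 15274 genes tested per time, 1538, 1294, 123, 218, 252 and 554 were higher at the 6 times from 0 h on. Lower were 1441, 1514, 284, 352, 392 and 764. With upper-quartile scaling, 1 was raised at 1 h and 2 lowered at 24 h in NT, and 1 lowered at 2 h and 2 at 4 h in IFT88siRNA. Of all 16048 genes under this scaling, 1251 were raised at 1 h and 1742 lowered at 24 h in NT. Of all 16129 genes in IFT88siRNA, 2720 were lowered at 2 h and 2810 at 4 h. With TPM, at either pseudocount and with no minimum, raised in NT were 1 at 1 h, 2 at 2 h and 2 at 8 h and lowered 2 at 4 h and 2 at 24 h. On log2(TPM + 1), 888, 1115 and 1317 of all 16870 genes were raised and 2768 and 1279 lowered at those times. In IFT88siRNA, TPM gave 1 raised at 1 h and 1 at 24 h, and 1 lowered at 2 h and 2 at 4 h. On log2(TPM + 1), 664 and 686 of all 16443 genes were raised and 2489 and 2634 lowered at those times. Between the siRNA groups, TPM gave 0 lower at 0, 8 and 24 h, and with no minimum 0 higher at 8 h, where *Aldh3a1* stood at 0.72 (limma adjusted p = 0.0572). Over all genes, 83, 32 and 32 were lower at 0, 8 and 24 h on log2(TPM + 1), of 15025, 14864 and 14636 tested. With no minimum, 2 of 32391 were higher at 8 h. With total-count scaling, raised in NT were 1 at 1 h, 2 at 2 h and 2 at 8 h, and lowered 1 at 1 h, 2 at 4 h and 2 at 24 h. Of all 16048 genes under this scaling, 1015, 1297 and 1627 were raised and 2602, 4159 and 1749 lowered at those times. In IFT88siRNA total-count scaling gave 1 raised at 1 h and 1 lowered at 2 h and 2 at 4 h. Of all 16129 genes, 767 were raised at 1 h, and 3925 and 3937 lowered at 2 and 4 h. With no filter on low counts, 1 member was higher between the siRNA groups at 0 h (*Aldh3a1*), as were 144 of all 28774 genes.

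Leaving out single libraries gave 2 to 3 members raised at 1 h and 3 to 4 at 2 h in NT, and 0 to 1 lowered at 4 h and 1 to 2 at 24 h. In IFT88siRNA it gave 2 to 3 raised at 1 h and 2 to 3 at 8 h, and 0 to 1 lowered at 4 h. Between the siRNA groups it gave 0 to 1 higher at 0 h and 0 to 1 lower at 0, 4 and 8 h. The other counts did not move, with 0 to 0 members for the difference in response. NT 4 h and 8 h kept 4 raised, NT 24 h and IFT88siRNA 24 h kept 3, and IFT88siRNA 24 h kept 2 lowered.

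Over all genes, dropping the fold threshold raised the calls from 2618 to 4602 per time in NT to 7206 to 9775, from 2295 to 4722 in IFT88siRNA to 6419 to 9649, from 64 to 393 between the siRNA groups to 407 to 2979, and from 201 to 924 for the difference in response. Between the siRNA groups at 0, 1, 2, 4, 8 and 24 h, edgeR called 341, 393, 73, 64, 105 and 175 genes, TPM 118, 85, 14, 10, 38 and 51, TPM with a pseudocount of 0.1 157, 73, 22, 17, 29 and 61, and TPM with no minimum 69, 29, 15, 10, 11 and 25. DESeq2 called 176, 223 and 34 at 0, 1 and 4 h. No filter gave 137, 100 and 245 at 2, 4 and 8 h and 345 for the difference in response, and all libraries in 1 model 142 and 231 at 2 and 8 h. For the difference in response, TPM with no minimum called 128 genes.

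The share of all called genes that rose depended on the scaling. In NT at 1, 2, 4 and 8 h it was 49.4%, 47.6%, 56.7% and 60.0% with TMM and 28.1%, 23.2%, 30.7% and 49.5% with total-count scaling. In IFT88siRNA at 1, 2 and 4 h it was 45.2%, 48.4% and 54.5% against 25.5%, 24.4% and 31.9%. With upper-quartile scaling it was 45.7% in NT at 4 h and 38% and 44.1% in IFT88siRNA at 2 and 4 h. With TPM it was 34.7%, 26.8% and 38% in NT at 1, 2 and 4 h and 34.7%, 31% and 38.3% in IFT88siRNA. TMM factors were 1.10 to 1.12 at 0 h and 0.892 to 0.929 at 4 h.

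Depth limits *Aldh3a1* (55 to 297 counts) and *Slc7a11* (158 to 750 counts) most.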
